A study of Homo sapiens with 6 samples.

Results

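Ribosome biogenesis and RNA polymerase I genes were compared between RKO cells, which come from a human colon carcinoma, with a short hairpin RNA against the circular RNA hsa_circ_0064559 (shCIRC) and RKO cells with a vector for a nonsense hairpin (shEV). The set was fixed by gene name: 40 symbols of the pathway and every symbol that begins with UTP and a digit, which added 10. All 50 genes were measured, with 131 probe sets, among 15894 genes in all. Total RNA, 6 µg per sample, of 3 shCIRC and 3 shEV samples was hybridized to PrimeView arrays, on which each gene is read by 1 or more sets of short probes. Both groups were grown in the same medium with serum, and the labels name a Lipofectamine reagent for the transfection. The labels give 1 hairpin sequence for shCIRC and 1 nonsense sequence for shEV, and no label states that arrays of a group stand for separate cultures. The p-values therefore rest on array-to-array spread, which may be only technical.

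Ribosomes begin in the nucleolus, where RNA polymerase I (Pol I) transcribes the ribosomal DNA into a long precursor. Small nucleolar ribonucleoproteins (snoRNPs) modify this RNA, the small subunit processome folds and cuts it, and separate sets of factors then mature the 40S and the 60S subunit. Growing tumor cells use this pathway heavily, and the transcription factor MYC is known to drive many of its genes.

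The array medians lay between 6.82 and 6.85 on the log2 scale, and signals ran from 2.86 to 15.3. Arrays of a group correlated across probe sets with r of 0.998 to 0.999 and arrays of different groups with r of 0.992. Of 8 markers of colon epithelium, 5 were in the table of probe sets that the authors kept. EPCAM, KRT18 and CDX2 lay above the median signal of all genes and KRT8 and KRT19 did not, while KRT20, CDH1 and VIL1 were not in that table. By the test below, 1 of the 5 was higher in shCIRC and 2 were lower, against 22.8% and 24.7% of all genes. PTPRC, CD14, LYZ, DCN and LUM were not in the table either. Of the other markers of leukocytes, fibroblasts and endothelium, 0 lay above that median and 0 passed the test in either direction. The 3′ minus 5′ signal of the GAPDH control probe sets, a measure of RNA quality, was -0.30 ± 0.02 in shCIRC and -0.16 ± 0.02 in shEV (SD, n = 3 each), and that of ACTB was -0.01 ± 0.03 in shCIRC and 0.13 ± 0.02 in shEV. Their part in the results was not tested. The level of hsa_circ_0064559 itself was not analysed here.

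The pathway did not move as a block. In bulk RNA, fewer cells that express a gene and less of its RNA per cell cannot be told apart. At an adjusted p under 0.05, shCIRC had 17 of the 50 genes above shEV and 16 below it, and 17 did not pass (limma over all genes, with Benjamini-Hochberg adjustment and 1 probe set per gene, the brightest). The shares, 34.0% higher and 32.0% lower, stand against 22.8% higher and 24.7% lower among all genes. Together 66.0% of the 50 genes passed, against 47.5% of all genes. The 50 genes were brighter than most, with a median log2 signal of 10.3 against 8.11 over all genes, and their median SD within a group was 0.035 against 0.058. When the fit held only genes above the median signal, 34 of the 46 genes left (73.9%) passed, against 77.2% of all genes in that fit, so at like brightness the share of calls was close to that of other genes.

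Sizes were also close to those of other genes. The median log2 difference, shCIRC minus shEV, was -0.021 over the 50 genes and -0.0045 over all genes, and the median size of the difference was 0.16 over the 50 genes and 0.13 over all genes. Past a fold of 1.3 as well, 3 of them rose (6.0%, against 7.44% of all genes) and 5 fell (10.0%, against 9.42%). The 3 shCIRC arrays lay above all shEV arrays in 17 genes (34.0%, against 27.0% of all genes) and below them in 19 (38.0%, against 29.0%).

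**Figure D1:**
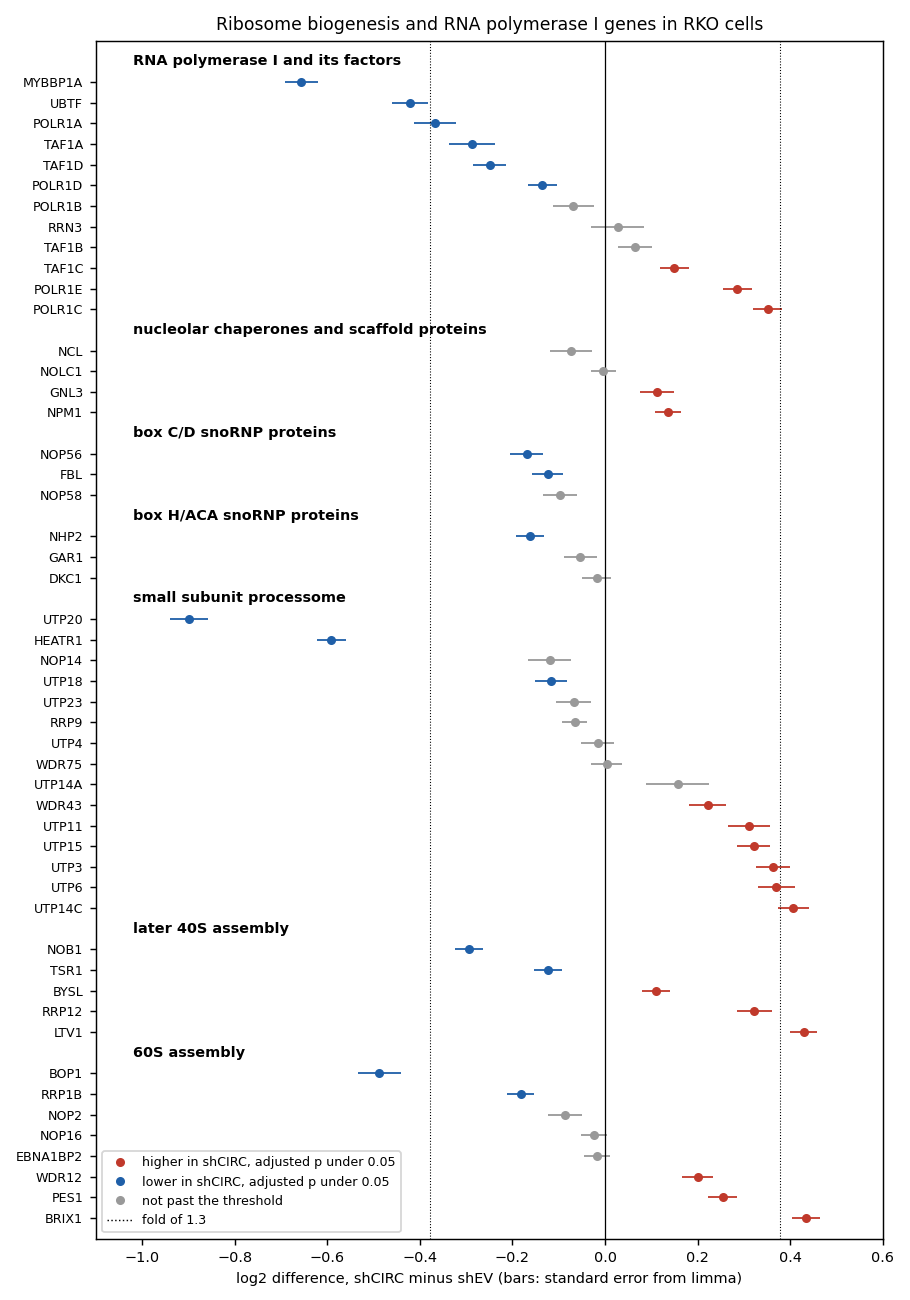
Log2 difference, shCIRC minus shEV, of each of the 50 genes (points) with its standard error from limma (bars), grouped by role; red genes were higher and blue genes lower at an adjusted p under 0.05, and the dotted lines mark a fold of 1.3. Genes to the left and to the right of 0 occur in most role groups, and UTP20 lies farthest from 0, at -0.90.

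Among the role groups, RNA polymerase I and its factors held the most genes that fell. Its 12 genes divided into 6 lower, 3 higher and 3 not past the threshold, with a median log2 difference of -0.10. Of all genes 24.7% were lower and 22.8% higher. In the separate fit of genes above the median signal, 3078 of 7947 were lower and 3055 higher, so 77.2% passed there. TAF1A and TAF1C, below the median signal, were not part of that fit. By the fit over all genes, 5 of 10 were lower and 2 were higher once UBTF and TAF1C were left out. The own probe sets of those 2 genes disagreed in direction, and the count was made after the values were seen. It keeps TAF1D, whose 1 own probe set fell while those it shares with other genes went both ways. MYBBP1A, a nucleolar protein that binds the Pol I machinery and p53, had log2 signals of 8.43, 8.43 and 8.43 in shCIRC, against 9.11, 9.03 and 9.11 in shEV. It was lower by 36.5% in shCIRC, with a log2 difference of -0.66 (limma, standard error 0.04, adjusted p = 1.6e-05). The groups lay far apart for this gene, and 4 of its 5 probe sets fell, by log2 differences down to -0.85. The fifth, the dimmest, had signals near 6.4 in both groups and a log2 difference of -0.02.

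UBTF, which binds the ribosomal gene promoter and keeps it ready for transcription, had log2 signals of 8.77, 8.76 and 8.67 in shCIRC, against 9.17, 9.12 and 9.17 in shEV. Its log2 difference was -0.42 (limma, standard error 0.04, adjusted p = 1.5e-04). The other probe sets of UBTF did not show this fall. A probe set aligned to the same span of chromosome 17, 42282407 to 42298250 in the deposited annotation, had mean signals of 8.82 in shCIRC and 8.79 in shEV, a log2 difference of 0.03. Another had 0.03 too, and the dimmest was higher, with 0.25 (adjusted p = 0.016 from limma over probe sets). The mean of the 4 probe sets gave a log2 difference of -0.03 (adjusted p = 0.58 from limma), so the direction of UBTF depends on the probe set.

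POLR1A, the largest catalytic subunit of Pol I, had log2 signals of 9.32, 9.20 and 9.20 in shCIRC, against 9.57, 9.61 and 9.64 in shEV. Its log2 difference was -0.37 (limma, standard error 0.04, adjusted p = 5.5e-04), and its second probe set had -0.56. POLR1B, the second catalytic subunit, had -0.07 and did not pass (adjusted p = 0.26 from limma), although 3 of its 6 probe sets were lower, down to -0.24. Other subunits were higher. POLR1C, which Pol I shares with RNA polymerase III, had log2 signals of 10.44, 10.47 and 10.46 in shCIRC, against 10.08, 10.14 and 10.10 in shEV.

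The log2 difference of POLR1C was 0.35 (limma, standard error 0.03, adjusted p = 1.2e-04). POLR1D, its partner in both polymerases, had -0.14 in contrast, and all 3 of its probe sets were lower. POLR1E, a Pol I subunit that takes part in initiation, had 0.29, and all 3 of its probe sets were higher. The subunits of the enzyme thus differed in direction on the array.

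The promoter factor SL1 is built from TAF1A, TAF1B, TAF1C and TAF1D with the TATA-binding protein. TAF1A and TAF1D were lower, with log2 differences of -0.29 and -0.25, and all 5 probe sets of TAF1A fell. The fall of TAF1D rests on 1 probe set. Probe sets that name TAF1D with SNORA8, SNORA40 or SNORA18 were higher, with 0.20, 0.20 and 0.18. The one with SNORA8 and SNORA25 was lower, with -0.29, and the one with SNORA8 and SNORA32 did not pass. TAF1C was higher with 0.15 by its brightest probe set, while another probe set was lower with -0.16, and TAF1B had 0.06 and did not pass. RRN3, which joins Pol I to SL1 and passes growth signals to it, had log2 signals of 9.79, 9.90 and 9.97 in shCIRC, against 9.84, 9.81 and 9.94 in shEV. The groups overlapped, with a log2 difference of 0.03 (adjusted p = 0.74 from limma). RRN3 has near-identical copies, RRN3P1 and RRN3P2, so its signal can include theirs.

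**Figure D2:**
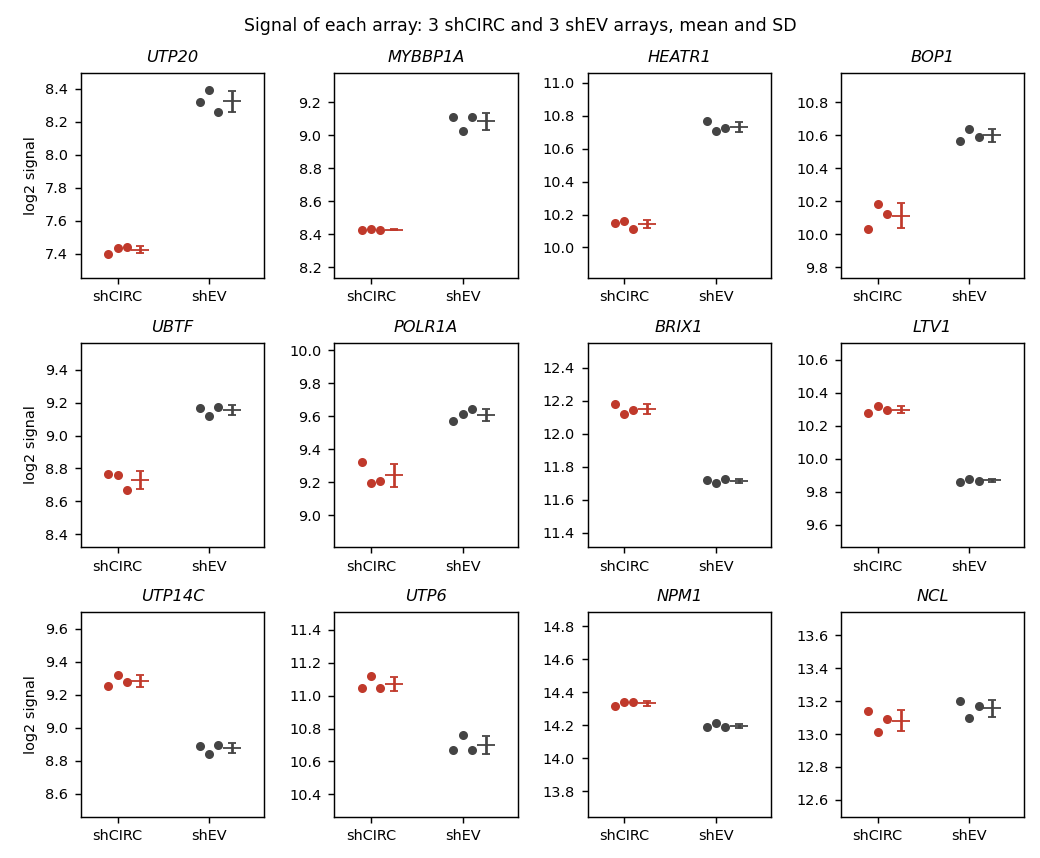
Log2 signal of each array for 12 genes, with 3 shCIRC arrays on the left and 3 shEV arrays on the right of each panel (points) and the mean with its SD beside them; all panels span the same height on the log2 scale. The groups do not overlap in the panels from UTP20 to NPM1 and overlap in NCL, where shCIRC ran from 13.01 to 13.14 and shEV from 13.10 to 13.20.

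Among the genes of nucleolar chaperones and scaffold proteins, differences were small by the brightest probe sets, between -0.07 and 0.14. NPM1, a histone and ribosome chaperone, had log2 signals of 14.32, 14.34 and 14.34 in shCIRC, against 14.19, 14.21 and 14.19 in shEV, a log2 difference of 0.14 (limma, standard error 0.03, adjusted p = 0.0065). Of its 6 probe sets, 4 were higher, 1 did not pass and 1 was lower with -0.26 (adjusted p = 8.4e-04 from limma over probe sets). NPM1 has copies elsewhere in the genome, and the annotation places the probe set that did not pass at such a copy. NCL, or nucleolin, which binds nascent ribosomal RNA, had log2 signals of 13.14, 13.01 and 13.09 in shCIRC, against 13.20, 13.10 and 13.17 in shEV. The groups overlapped, with a log2 difference of -0.07 (adjusted p = 0.25 from limma).

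NOLC1, a chaperone of snoRNPs, had a log2 difference of -0.0038 by its brightest probe set, while its other 2 probe sets were higher, with 0.17 and 0.33. All 3 align to the same span. GNL3, or nucleostemin, a GTPase of growing cells, had 0.11 (adjusted p = 0.040 from limma) by its brightest probe set and 0.45 by the other. The 4 genes of this group thus had 2 higher, 0 lower and 2 that did not pass, where 22.8% of all genes were higher and 24.7% lower. In the separate fit of genes above the median signal 3055 of 7947 were higher and 3078 lower.

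The proteins of the modifying snoRNPs were lower or did not pass by their brightest probe sets, and 0 of 6 were higher, where 22.8% of all genes were. In the separate fit of genes above the median signal 3055 of 7947 were higher and 3078 lower, and NOP58 passed there as lower. In the box C/D particles, which methylate the precursor, NOP56 had log2 signals of 12.52, 12.61 and 12.53 in shCIRC, against 12.73, 12.73 and 12.71 in shEV. Its log2 difference was -0.17 (limma, standard error 0.04, adjusted p = 0.0070), and its 4 probe sets lay between -0.21 and -0.17. FBL, or fibrillarin, the methyltransferase of these particles, had 13.32, 13.27 and 13.35 in shCIRC, against 13.42, 13.42 and 13.46 in shEV, a log2 difference of -0.12 (adjusted p = 0.021 from limma). NOP58 had -0.10 and did not pass (adjusted p = 0.070 from limma), and its other probe set had 0.12 (adjusted p = 0.051 from limma over probe sets).

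In the box H/ACA particles, which convert uridine to pseudouridine, NHP2 had log2 signals of 12.67, 12.73 and 12.68 in shCIRC, against 12.87, 12.85 and 12.85 in shEV. Its log2 difference was -0.16 (adjusted p = 0.0042 from limma), and all 3 of its probe sets were lower by close to the same amount. DKC1, or dyskerin, the pseudouridine synthase, had 11.96, 12.03 and 12.02 in shCIRC, against 12.02, 12.03 and 12.00 in shEV. The groups overlapped, with a log2 difference of -0.02 (adjusted p = 0.68 from limma) and of 0.07 by its other probe set, and GAR1 had -0.05 (adjusted p = 0.27 from limma).

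The small subunit processome, the largest role group, held both the largest fall and the largest number of rises. Its 15 genes divided into 6 higher, 3 lower and 6 not past the threshold. Over all genes 22.8% were higher and 24.7% lower. In the separate fit of genes above the median signal 77.2% passed in 1 direction or the other. NOP14 and RRP9 passed in that fit too, as lower, and UTP20 and UTP14A, below the median signal, were not part of it. UTP20, a large scaffold protein of the processome, had log2 signals of 7.40, 7.43 and 7.44 in shCIRC, against 8.32, 8.39 and 8.26 in shEV. It was lower by 46.3% in shCIRC, with a log2 difference of -0.90 (limma, standard error 0.04, adjusted p = 9.8e-06), the largest of the 50 genes, from a single probe set that the annotation places on chromosome 12 from 101673886 to 101780394. HEATR1, the homolog of yeast Utp10, is a scaffold protein that is also needed for Pol I transcription. It had log2 signals of 10.15, 10.16 and 10.11 in shCIRC, against 10.77, 10.71 and 10.72 in shEV.

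The log2 difference of HEATR1 was -0.59 (limma, standard error 0.03, adjusted p = 1.7e-05). A second probe set had -0.50, and the third, with mean signals of 4.63 in shCIRC and 4.55 in shEV, had 0.08 and did not pass. HEATR1, WDR43, WDR75, UTP4 and UTP15 form the early part of the processome that meets the nascent RNA. WDR43 and UTP15 were higher, with 0.22 and 0.32, and WDR75 and UTP4 did not pass, with 0.0035 and -0.02. UTP15 had 1 of 3 probe sets in the other direction, with -0.20.

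The 10 UTP genes divided into 5 higher, 2 lower and 3 not past the threshold, where 22.8% of all genes were higher and 24.7% lower. Their median log2 difference was 0.23. In the separate fit of genes above the median signal, which left out UTP20 and UTP14A, 3055 of 7947 genes were higher and 3078 lower. UTP6 had log2 signals of 11.05, 11.12 and 11.05 in shCIRC, against 10.67, 10.76 and 10.67 in shEV, a log2 difference of 0.37 (limma, standard error 0.04, adjusted p = 3.2e-04), and its second probe set had 0.61. UTP3 had 0.36 and UTP11, listed in the annotation as UTP11L, had 0.31, although its other probe set had -0.04. UTP14C had 9.25, 9.32 and 9.28 in shCIRC, against 8.89, 8.84 and 8.90 in shEV, a log2 difference of 0.41 (limma, standard error 0.03, adjusted p = 9.2e-05). UTP14C is a copy of UTP14A and overlaps ALG11, so its signal can include theirs, and UTP14A itself had 0.16 and did not pass (adjusted p = 0.10 from limma).

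UTP18 had a log2 difference of -0.12 (adjusted p = 0.027 from limma), while its second probe set had 0.11. UTP23, NOP14 and RRP9, a protein of the U3 snoRNP, had -0.07, -0.12 and -0.07 and did not pass.

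The 5 genes that mature the 40S subunit after the processome all passed, 3 higher and 2 lower. Of all genes 47.5% passed, and in the separate fit of genes above the median signal 77.2% did. LTV1, a factor of late 40S particles, had log2 signals of 10.28, 10.32 and 10.29 in shCIRC, against 9.86, 9.88 and 9.87 in shEV. It was higher by 34.6% in shCIRC, with a log2 difference of 0.43 (limma, standard error 0.03, adjusted p = 3.9e-05), and all 4 of its probe sets were higher, from 0.21 to 0.50. NOB1, the nuclease that makes the final cut of the 18S RNA, had 11.08, 11.08 and 11.09 in shCIRC, against 11.39, 11.34 and 11.41 in shEV, a log2 difference of -0.29 (limma, standard error 0.03, adjusted p = 2.7e-04). RRP12 was higher with 0.32 by its brightest probe set, while its probe sets with 0.05 and 0.10 did not pass. BYSL was higher, with 0.11, and TSR1 was lower, with -0.12.

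The 8 genes of 60S assembly divided into 3 higher, 2 lower and 3 not past the threshold. Over all genes 22.8% were higher and 24.7% lower. In the separate fit of genes above the median signal 77.2% passed, and NOP2 passed there too, as lower. BRIX1 had log2 signals of 12.18, 12.12 and 12.14 in shCIRC, against 11.72, 11.70 and 11.73 in shEV, a log2 difference of 0.43 (limma, standard error 0.03, adjusted p = 4.6e-05), and all 4 of its probe sets were higher, from 0.30 to 0.56. BOP1, PES1 and WDR12 form 1 complex that is needed to mature the 60S RNAs, and their signals moved apart. BOP1 and PES1 were read by 1 probe set each, so no other probe set could check them. BOP1 had 10.03, 10.18 and 10.12 in shCIRC, against 10.57, 10.64 and 10.59 in shEV, a log2 difference of -0.49 (limma, standard error 0.05, adjusted p = 1.8e-04). PES1 had 10.44, 10.48 and 10.48 in shCIRC, against 10.22, 10.18 and 10.24 in shEV, a log2 difference of 0.25 (adjusted p = 6.0e-04 from limma).

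WDR12 was higher with 0.20 by its brightest probe set, while its other 2 did not pass. RRP1B, which links ribosome assembly to chromatin, was lower with -0.18. NOP2, a methyltransferase of the large subunit RNA, had -0.09, NOP16 had -0.02 and EBNA1BP2 had -0.02, and these 3 did not pass.

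The probe sets of a gene often differed. Of the 33 genes that passed, 26 had more than 1 probe set. In 14 of these every probe set passed in the same direction, 8 higher (BRIX1, GNL3, LTV1, POLR1E, UTP14C, UTP3, UTP6 and WDR43) and 6 lower (NHP2, NOP56, POLR1A, POLR1D, TAF1A and TSR1). In 8 some probe set did not pass, and in 4 (NPM1, TAF1C, UBTF and UTP15) a probe set passed in the other direction. In NOLC1, NOP2, POLR1B and RRN3 the brightest probe set did not pass and another did. A further 11 probe sets name a gene of the set together with another gene. Of these, 6 were higher and 2 were lower, where 25.4% of all probe sets in the same fit were higher and 24.4% lower, and 5 of the 11 are of TAF1D and 3 of UTP14C.

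**Figure D3:**
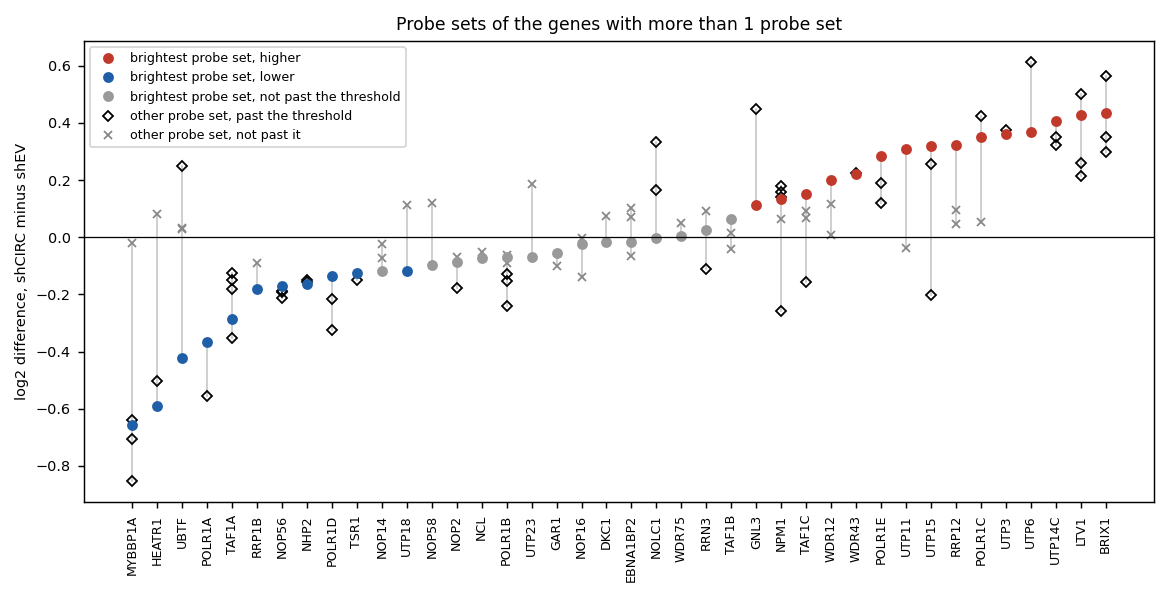
Log2 difference, shCIRC minus shEV, of every probe set of the 40 genes with more than 1 probe set, ordered by the brightest one (filled circles); diamonds are other probe sets past an adjusted p of 0.05, and crosses are those not past it. The probe sets of UBTF run from -0.42 to 0.25 and those of NPM1 from -0.26 to 0.18, while those of BRIX1 all lie above 0.

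The promoters of these genes were read for the E-box CACGTG, a hexamer that MYC and related factors bind, and which reads the same on both strands. RefSeq windows (GRCh38.p14) of 250 bases before to 50 after the annotated start were at hand for 43 of the 50 genes. Of these, 16 held the hexamer (37.2%), against 11.5% of the 12516 measured genes with a window and 8.77% of all genes with one. In 15 genes a copy began no more than 20 bases before the start or after it, a bound chosen after the positions were seen, against 2.58% of the measured genes with a window and 1.97% of all genes with one. The hexamer was in the windows of 5 of 15 genes that were higher, 4 of 14 that were lower and 7 of 14 that did not pass. The 5 windows below are from the genes past the threshold with the largest changes that hold it, and they show that genes of both directions carry it near the start, with the hexamer in capitals.
UTP20: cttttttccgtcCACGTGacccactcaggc
MYBBP1A: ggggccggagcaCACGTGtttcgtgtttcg
LTV1: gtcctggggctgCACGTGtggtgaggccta
PES1: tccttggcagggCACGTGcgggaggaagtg
WDR43: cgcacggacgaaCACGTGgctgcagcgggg

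The window of UTP20, which was lower, is chr12:101280083-101280112 on the plus strand, and its hexamer begins 10 bases before the start. That of MYBBP1A, also lower, is chr17:4555340-4555369 on the minus strand, with the hexamer 27 bases after the start. The windows of the higher genes are chr6:143843354-143843383 on the plus strand for LTV1, with the hexamer 28 bases after the start, chr22:30591880-30591909 on the minus strand for PES1, with 13 bases, and chr2:28894658-28894687 on the plus strand for WDR43, with 3 bases. A match of letters does not show that a factor binds there, and binding was not measured.

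**Figure D4:**
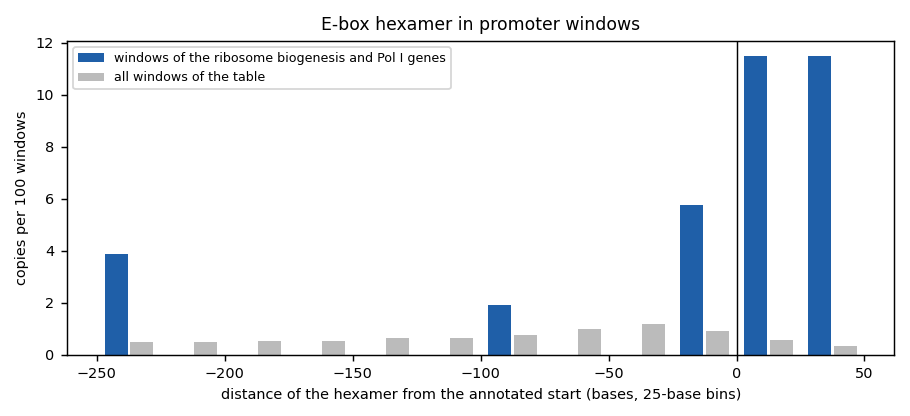
Copies of the E-box hexamer per 100 promoter windows by distance from the annotated start in bins of 25 bases, for the 52 windows of the ribosome biogenesis and Pol I genes (blue) and all 35116 windows (grey). The blue bars reach 11.5 in the first 2 bins after the start, where the grey bars are at 0.547 and 0.342.

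MYC itself had log2 signals of 12.70, 12.69 and 12.64 in shCIRC, against 12.85, 12.79 and 12.81 in shEV, a log2 difference of -0.14 (limma, standard error 0.03, adjusted p = 0.012). Among 16 genes of MYC, its partners and regulators of Pol I, 6 were higher and 4 were lower. The shares over all genes were 22.8% higher and 24.7% lower. RB1, which restrains Pol I through UBTF, had -0.80, although its probe sets ran from -0.80 to 0.14. MXD1, which competes with MYC for their partner MAX, had 0.73, and MDM2, which degrades p53 and is bound by free ribosomal proteins, had 0.58, with probe sets from 0.06 to 1.15.

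Other genes of ribosome assembly were found in both directions as well. Of 36 other genes of the processome and 40S assembly, 16 were higher (44.4%) and 13 were lower (36.1%), against 22.8% and 24.7% of all genes. Their median log2 signal was 10.4. In the separate fit of genes above the median signal 77.2% passed in 1 direction or the other, but this list was not counted in that fit. NAT10, which acetylates the 18S RNA, had a log2 difference of -1.18 (adjusted p = 5.7e-06 from limma), a larger fall than that of any of the 50 genes, and its 3 probe sets lay between -1.29 and -1.05. NOL11, a processome protein, had 0.62 and RCL1 had -0.50. Of 40 other 60S factors, 10 were higher and 13 were lower. NOC4L, with -0.35, is counted in both of these lists. MAK16 and the GTPase EFL1, which helps to release EIF6 from the 60S subunit, had -0.86 and -0.81, and AFG2A had -0.38.

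Of 21 other genes of Pol I, ribosomal DNA and snoRNP assembly, 9 were higher (42.9%) and 6 were lower (28.6%), against 22.8% and 24.7% of all genes. Their median log2 signal was 11.2. In the separate fit of genes above the median signal 77.2% passed, but this list was not counted in that fit. TCOF1, or treacle, which works with UBTF at the ribosomal genes, had a log2 difference of -0.63 (adjusted p = 7.4e-05 from limma), and its 5 probe sets lay between -0.64 and -0.39. RUVBL1 and SHQ1, which assemble snoRNPs, had 0.46 and 0.44. Of 21 genes of the RNA exosome and other nucleases of ribosomal RNA, 6 were higher (28.6%) and 4 were lower (19.0%). The largest changes were 0.52 for EXOSC4, 0.47 for C1D and 0.46 for RPP40.

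RNA polymerase III makes the 5S RNA. Of 14 genes of this enzyme, its initiation factors and its repressor MAF1, 3 were higher (21.4%) and 6 were lower (42.9%). Of all genes 22.8% were higher and 24.7% lower. Without MAF1 3 of 13 were higher and 5 lower. MAF1 had log2 signals of 9.11 in shCIRC and 10.16 in shEV on average and a log2 difference of -1.04 (adjusted p = 4.1e-06 from limma). POLR3GL and POLR3G, alternative subunits of the same polymerase, had 0.61 and 0.44.

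Among these lists the cytosolic ribosomal proteins had the smallest median size of difference. Of 81 genes, 4 were higher (4.94%) and 5 were lower (6.17%), against 22.8% and 24.7% of all genes. The median log2 difference was 0.0028 and its median size 0.025. Their median log2 signal was 14.5, near the top of the range of the arrays at 15.3, and its part in the small differences was not tested. RPL27A had 0.60, from a probe set with mean signals of 5.83 in shCIRC and 5.22 in shEV. RPS27L, a p53-induced relative of RPS27, had 0.38, and RPL36 had -0.17. These lists were compared with all genes by their counts and medians only.

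**Figure D5:**
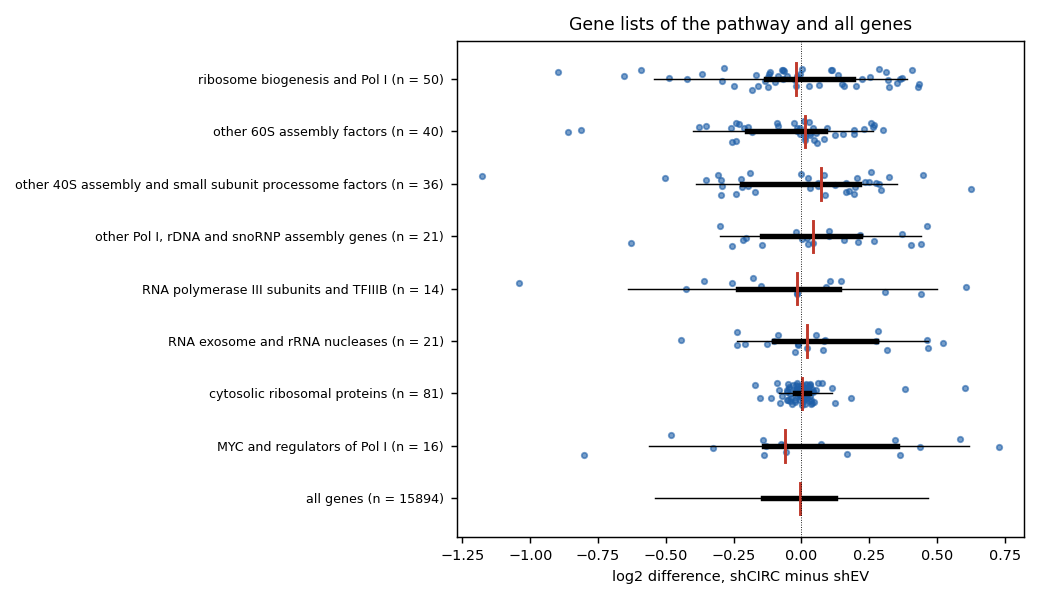
Log2 difference, shCIRC minus shEV, of each gene (points) in the ribosome biogenesis and Pol I set, and in 7 other lists of the pathway, with all 15894 genes as lines only; thick lines span the middle 50% and thin lines the middle 90%, and red bars are medians. The medians lie between -0.060 and 0.073, and the ribosomal proteins form the narrowest group.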

How the data were processed

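Gene expression was measured with 6 PrimeView arrays of RKO cells, 3 shCIRC and 3 shEV, grouped by their titles. The authors deposited log2 signals after quantile normalization in R, for 49395 probe sets, and an annotated table of 39269 that they kept, with equal values. The submitters' processing notes name GCOS 1.4, but the sources used here give no background correction or probe summary. The authors' own fold changes, p-values and FDR stand beside the annotated signals and were not used. Only probe sets naming 1 gene were used, without 73 array controls, 1539 that name several genes and 199 that name no gene. The brightest probe set stood for each gene, symbols were updated by Entrez number through RefSeq (37380 of 37458 matched), and 15894 genes were tested with limma 3.58.1 in R 4.3.3 (lmFit, eBayes, Benjamini-Hochberg over all genes, threshold 0.05). Other probe sets were tested in 1 fit over all probe sets of 1 gene. The script was tested on simulated data. The number of arrays limits the precision.

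The genes and lists were chosen with earlier results of these data known. Array values are given for the 10 genes with the largest changes, for POLR1A, UBTF, RRN3, NCL, NPM1, FBL, DKC1 and HEATR1, and for the largest rise and fall in each role group. PES1 is given beside them because it shares a complex with BOP1, and was chosen after its values were seen. From each other list up to 3 genes past the threshold with the largest changes are named, and MYC, and NOC4L because 2 lists hold it. Alternatives were other scalings, filters, uses of the probe sets, tests and thresholds, the replicate block and leaving out each array. The positions of the deposited annotation carry no named build.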

Additional observations from a re-analysis of the deposited data

Results flagged for a closer look

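Some probe sets name a gene of the set together with another gene and entered none of the counts of genes above. In a fit over all probe sets other than array controls, 6 of 11 such probe sets were higher in shCIRC than in the shEV control arrays and 2 were lower, against 25.4% higher and 24.4% lower over all probe sets in that fit. Of the 11, 5 are of TAF1D and 3 of UTP14C. The 2 probe sets shared by UTP14C and ALG11 had log2 differences of 0.48 (adjusted p = 1.1e-04 from limma) and 0.33 (adjusted p = 9.2e-04 from limma). The probe set shared by RRN3 and its copies RRN3P1 and RRN3P2 had 0.36 (adjusted p = 0.0016 from limma), while those of RRN3 alone lay between -0.11 and 0.09. TAF1D carries small nucleolar RNAs in its introns, and 3 probe sets shared with them were higher: 0.20 with SNORA8, 0.20 with SNORA40 and 0.18 with SNORA18. The probe set of TAF1D alone had -0.25, and that shared with SNORA8 and SNORA25 had -0.29.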

How the results depend on the processing

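Of the 33 genes that passed, 24 did so in the same direction in every alternative that gives a value per gene, 13 higher and 11 lower. The numbers of higher and lower genes were 15 to 16 and 14 to 17 when 1 array was left out, and with a fold above 1.3 they were 3 to 4 and 5 to 6. Cyclic loess gave 15 higher and 20 lower, and quantile normalization again 15 and 18. When every probe set of a gene had to pass in the same direction, 10 genes were higher in place of 17 and 11 lower in place of 16. With the fold 0 were higher in place of 3 and 2 lower in place of 5. A passed gene with 1 probe set cannot fail this check. Of the genes with more than 1 probe set, 8 were higher and 6 lower. BOP1 and UTP20, the 2 lower past the fold, have 1 probe set each. The median of the 50 genes was -0.055 after quantile normalization again, -0.0062 with arrays centred on their median, -0.061 with cyclic loess, 0.0072 with the mean of the probe sets, and -0.035 to -0.018 without 1 array. The cause was not tested. With the mean of the probe sets NOLC1 changed from -0.0038 to 0.16 and passed (adjusted p = 0.0041 from limma), POLR1B (-0.12), NOP2 (-0.11) and GAR1 (-0.08) passed too, and UBTF, NPM1, TAF1C and UTP18 no longer passed.

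Small changes were the least stable. GNL3 was lost without any of the arrays except shCIRC replicate 3 (adjusted p of 0.085 to 0.11 from limma), and BYSL without any except shCIRC replicate 1 (0.058 to 0.080). UTP18 was lost without shCIRC replicate 2 or 3 or shEV replicate 1 or 3 (0.056 to 0.093), and FBL without shCIRC replicate 2 or shEV replicate 1 or 3 (0.053 to 0.073). NOP58 passed without shCIRC replicate 1 (adjusted p = 0.031 from limma), and NOP14 and UTP14A without shCIRC replicate 2 (0.027 and 0.025). Over alternatives of every kind, NOP58 passed in 6, NOP14 in 5, RRP9 in 4, NOP2 in 3 and UTP14A in 2. Same-numbered arrays correlated in their deviations with r of 0.066 to 0.099, too little to take the numbers as pairs, although each array correlated best with its own number. With the replicate block 16 genes were higher and 16 lower, and GNL3 was lost (adjusted p = 0.070 from limma). The methods' t-test with Benjamini-Hochberg adjustment called 16 higher and 17 lower. The table of all probe sets has no gene names for those the authors left out, so these entered that fit unnamed.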

Other observations

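The lower shared probe sets were that of TAF1D with SNORA8 and SNORA25 (adjusted p = 4.5e-04 from limma) and that of DKC1 with SNORA56. The one of DKC1 with SNORA56, a small nucleolar RNA in an intron of that gene, had 5.53, 5.49 and 5.65 in shCIRC, against 5.97, 6.03 and 5.78 in shEV. Its log2 difference was -0.37 (adjusted p = 0.0048 from limma), while DKC1 alone had -0.02. The 3 remaining shared probe sets did not pass: NCL with SNORA75 had -0.14, TAF1D with SNORA8 and SNORA32 had -0.06, and UTP14C with UTP14A had 0.06.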
